A study of Mus musculus with 16 samples.

Results

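The 7 genes described here form a fetal progenitor programme: Lin28b, Igf2bp1, Igf2bp2, Igf2bp3, Hmga2, Arid3a and Plagl1. Their chromatin was read from ATAC-seq peak lists, in which a peak marks DNA that the Tn5 transposase could enter. Peaks that overlapped by at least 1 bp in any of 8 lists were merged into regions, and a gene's locus was its span in the mm10 assembly with 50 kb on either side. The 7 loci held 130 of the 122020 regions of the series. Distances to a gene start run from the centre of the region.

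The cells were hematopoietic progenitors, given in the labels as progenitor/MPP (multipotent progenitors), from mice 21 days old. Set 1 held Flt3-ITD with Runx1-het, Flt3-ITD alone, Runx1-het alone and wildtype, and set 2 held NUP98-HOXD13 with Flt3-ITD, NUP98-HOXD13 alone, Flt3-ITD alone and wildtype. Flt3-ITD is an activating internal tandem duplication in a receptor tyrosine kinase, Runx1-het is heterozygous loss of a blood transcription factor, and NUP98-HOXD13 is a leukemia fusion gene. Each of the 8 groups had 2 samples but 1 peak list pooled over them, so no value below has a replicate error and no test between genotypes was possible. Membership of a set was read from the titles of the samples. The labels give no account of what separates the sets, nor the mouse strain, the copies of Flt3-ITD, the driver of the fusion gene or whether samples shared animals.

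Lin28b encodes an RNA-binding protein that blocks maturation of the let-7 microRNAs, and it is active in fetal but not adult blood stem and progenitor cells. Low let-7 permits expression of its targets, among them Hmga2, Arid3a and the Igf2bp genes, and in mice Lin28b can give adult progenitors fetal-like lymphoid output. The Igf2bp proteins bind and stabilise messenger RNAs, Hmga2 is a chromatin protein that binds AT-rich DNA, Arid3a is a DNA-binding factor used in B-lineage development, and Plagl1 is a zinc finger factor encoded by an imprinted gene.

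The let-7 sequences are shown because they are the link between Lin28b and the other genes, and their shared seed is what lets them act on the same targets. Of 12 let-7 family genes examined, 11 had a mature 5p sequence in RefSeq (GRCm38.p6), which came to 9 distinct sequences with 1 seed. The seed, bases 2 to 8, is in capitals.
let-7a: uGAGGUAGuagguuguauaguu
let-7b: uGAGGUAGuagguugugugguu
let-7c: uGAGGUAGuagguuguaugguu
let-7d: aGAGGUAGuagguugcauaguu
let-7e: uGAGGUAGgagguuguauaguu
let-7f: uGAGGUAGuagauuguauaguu
let-7g: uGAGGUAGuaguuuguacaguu
let-7i: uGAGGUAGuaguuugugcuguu
miR-98: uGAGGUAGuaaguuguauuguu

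The promoters of Lin28b and Igf2bp3 are shown because open regions around their starts differed between lists. Each run is the 300 bases from 250 before to 50 after the gene start in RefSeq (GRCm38.p6), on the gene's own minus strand. Capitals mark the motifs found, which were CCAAT (the NFY box) on either strand and, in Igf2bp3, an IRF-type match.
Lin28b, chr10:45470152-45470451: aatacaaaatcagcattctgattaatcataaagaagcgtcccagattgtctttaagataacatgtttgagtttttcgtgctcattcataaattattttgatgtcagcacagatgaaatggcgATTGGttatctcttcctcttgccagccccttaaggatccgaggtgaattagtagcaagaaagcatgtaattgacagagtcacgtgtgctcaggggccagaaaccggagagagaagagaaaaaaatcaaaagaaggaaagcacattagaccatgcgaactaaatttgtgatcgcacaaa
Igf2bp3, chr6:49214905-49215204: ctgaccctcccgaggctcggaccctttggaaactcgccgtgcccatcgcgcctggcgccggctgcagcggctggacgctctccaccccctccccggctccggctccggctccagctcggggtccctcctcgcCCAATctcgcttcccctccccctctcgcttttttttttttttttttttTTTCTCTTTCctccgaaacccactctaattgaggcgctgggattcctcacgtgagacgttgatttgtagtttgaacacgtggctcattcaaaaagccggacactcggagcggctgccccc

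The 2 promoters differ in composition. The Lin28b window was 39% G or C with 8 CpG sites, and the Igf2bp3 window 60.3% with 25 CpG sites, against medians of 52.7% and 7 CpG sites over 32851 mouse promoter windows. The NFY box was found in 37.4% of all those windows and the IRF-type motif in 3.44%. In Igf2bp3 the IRF-type letters run straight on from a tract of T. Both strands were searched for 4 further motifs, and neither window held one. They were the RUNX motif (TGTGGT, found in 16.8% of all windows), the STAT motif (TTCNNNGAA, 8.3%), the HOX13 motif (CAATAAA, 4.6%) and the GATA-factor motif, which reads GATAAG (7.44%). The windows of Hmga2 (57.7% G or C), Plagl1 (70.7%) and Igf2bp2 (76.7% and 47 CpG sites) held none of the 6 motifs.

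The lists were long and unequal. They held 84080 to 138514 peaks, and set-2 Flt3-ITD was the shortest, with a median −log10 p of 15.8 against 24.7 to 38.5 in the other 7. Read depth was not known. With every list cut to its 84080 strongest peaks, the 36 regions of the 7 loci that set-2 Flt3-ITD lacked against wildtype became 17. Markers of progenitors were open throughout: all 8 progenitor markers with a promoter entry, Kit, Flt3, Cd34, Gata2, Runx1, Myb, Meis1 and Cd48, had a region at the promoter in all 8 lists. The T-cell markers Cd3e and Cd8a, the B-cell marker Pax5 and the erythroid marker Hba-a1 had no promoter region in any list. Of the neutrophil markers, Mmp8 and Ltf had one in all 8 lists and S100a8 in 5, and Cd79a of B cells had one in 5. Some markers without a promoter entry were read within 2 kb of the gene span, where Cd4, Col1a1, Cdh5 and Pecam1 had a region in all 8 lists and Slc4a1 in none (0). The part of other cell types in the results was not tested. In pooled cells, fewer cells with an open region and a less open region in each cell cannot be told apart.

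All 7 loci held open regions in every list. NUP98-HOXD13/Flt3-ITD held 85 of the 130 regions, NUP98-HOXD13 79, set-2 Flt3-ITD 56 and set-2 wildtype 87. Flt3-ITD/Runx1-het held 78, set-1 Flt3-ITD 76, Runx1-het 92 and set-1 wildtype 76. These were between 0.0953% and 0.113% of the regions of each list. Of the 130 regions, 38 (29.2%) were present in all 8 lists, against 34.1% of all regions, and 26 (20.0%) in 1 list, against 18.9%. The loci were thus mixtures of constant and variable regions, much as the genome was. No region of the 7 loci was present in exactly the 4 Flt3-ITD lists (0), a pattern shown by 71 of all regions (0.0582%). Exactly the NUP98-HOXD13 lists held 3 (2.31%), against 0.938% of all regions, and these lay at Lin28b and Igf2bp3.

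**Figure D1:**
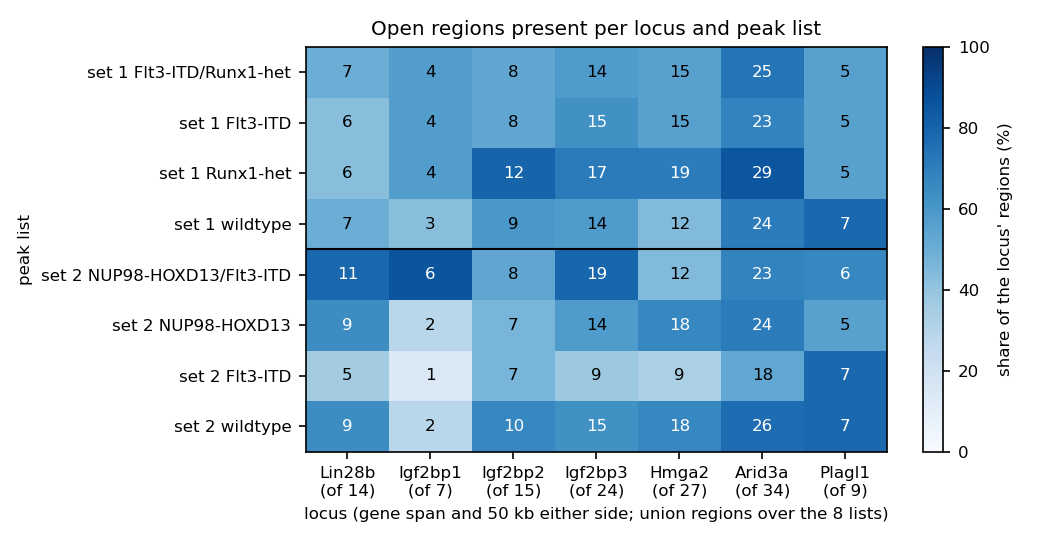
Number of open regions present at each locus (columns) in each of the 8 peak lists (rows, mutants above the wildtype of their set); color gives the share of the locus' regions in percent. Igf2bp1 ranged from 1 region in set-2 Flt3-ITD to 6 in NUP98-HOXD13/Flt3-ITD, and Plagl1 only from 5 to 7.

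Mutant and wildtype lists were compared by presence. A region was gained when the mutant list held it and the wildtype list of its set did not, and lost when the reverse held; the share is of the regions held by either list. The 3 mutants of a set share 1 wildtype list. Of the comparisons of a mutant with wildtype, the excess over all regions was largest for the gains of NUP98-HOXD13/Flt3-ITD, which gained 21 of 108 regions at the 7 loci (19.4%), against 10.1% of all regions, and lost 23 (21.3%), against 23.4%. NUP98-HOXD13 alone gained 13 of 100 (13.0%, all regions 10.9%) and lost 21 (21.0%, all regions 21.3%). Set-2 Flt3-ITD gained 5 of 92 (5.43%, all regions 4.35%) and lost 36 (39.1%, all regions 38.0%). With equal numbers of peaks, NUP98-HOXD13/Flt3-ITD gained 18 (21.7%, all regions 11.8%) and NUP98-HOXD13 gained 16 of 81 (19.8%, all regions 11.4%), so that the excess of gains was then seen in both.

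In set 1, Flt3-ITD/Runx1-het lost 15 of 93 regions (16.1%, all regions 10.6%) and gained 17 (18.3%, all regions 20.9%). Flt3-ITD lost 13 of 89 (14.6%, all regions 10.1%) and gained 13 (14.6%, all regions 18.7%). Runx1-het lost 9 of 101 (8.91%, all regions 8.51%) and gained 25 (24.8%, all regions 20.2%). With equal numbers of peaks the lost shares were close to those of all regions where Flt3-ITD was present, at 11.8% against 11.2% in Flt3-ITD/Runx1-het and 10.8% against 10.2% in Flt3-ITD. Lists of equal genotype also differed. Set-2 wildtype held 20 of 96 regions missing from set-1 wildtype (20.8%, all regions 24.2%) and lacked 9 of its regions (9.38%, all regions 7.22%). Set-2 Flt3-ITD held 5 of 81 regions missing from set-1 Flt3-ITD (6.17%, all regions 6.30%) and lacked 25 (30.9%, all regions 32.8%). Apart from the 36 losses of set-2 Flt3-ITD, the counts of the mutants lay within the 5 to 25 seen, gains and losses together, between lists of equal genotype. That range also holds any difference between the sets, and its upper end is losses of the short set-2 Flt3-ITD list. The comparisons differ in their number of regions and in the share over all regions, so the range is no measure of error.

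A stricter pattern set both lists carrying a mutation against the pair in the same set that lacked it. With NUP98-HOXD13, 7 of 116 regions were gained (6.03%, all regions 3.20%) and 1 was lost (0.862%, all regions 2.36%). The 7 gained regions lay at Lin28b (2), Igf2bp1 (1), Igf2bp3 (2) and Hmga2 (2). With Flt3-ITD in set 1 the balance was the other way: 7 of 110 regions were lost (6.36%, all regions 2.06%), at every locus but Lin28b, and 1 was gained (0.909%, all regions 3.23%). In set 2, 8 of 116 were lost with Flt3-ITD (6.90%, all regions 5.13%) and 1 was gained (0.862%, all regions 0.516%). With Runx1-het, 2 of 110 were gained (1.82%, all regions 2.75%) and 2 were lost (1.82%, all regions 1.33%). Without set-2 Flt3-ITD, the NUP98-HOXD13 pattern gained 8 regions (7.08%, all regions 4.01%) but lost 12 (10.6%, all regions 14.0%), and the set-2 Flt3-ITD pattern, which then set NUP98-HOXD13/Flt3-ITD against NUP98-HOXD13 and wildtype, gained 13 (11.5%, all regions 5.42%) and lost 11 (9.73%, all regions 7.86%).

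**Figure D2:**
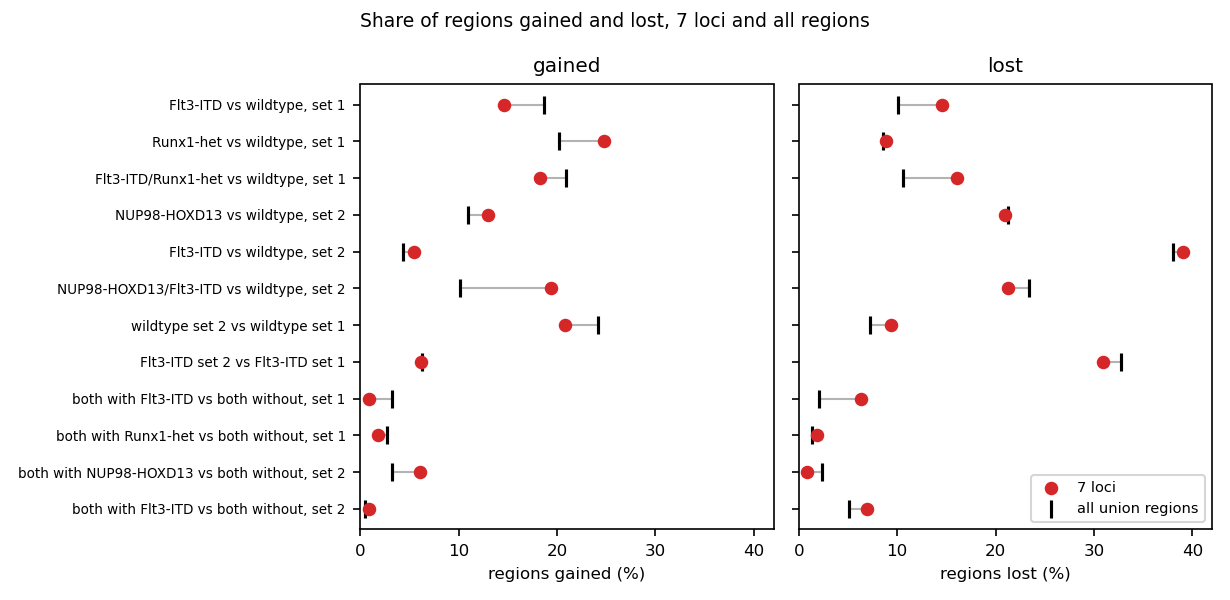
Share of regions gained (left panel) and lost (right panel), in percent of the regions held by the lists compared, for the 7 loci (red points) and all regions (black ticks), 1 row per comparison. The red point lies well right of the tick for the gains of NUP98-HOXD13/Flt3-ITD (19.4% against 10.1%) and for the losses of the set-1 Flt3-ITD pattern (6.36% against 2.06%).

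Lin28b (chromosome 10, 45376617 to 45486314, minus strand, start at 45470201) held 14 regions, 11 of them inside the gene span. NUP98-HOXD13/Flt3-ITD held 11 of them, NUP98-HOXD13 9, set-2 Flt3-ITD 5 and set-2 wildtype 9. Flt3-ITD/Runx1-het held 7, set-1 Flt3-ITD 6, Runx1-het 6 and set-1 wildtype 7. The promoter region itself (45468976 to 45470614), which covers all 300 bases shown above, was open in all 8 lists. Its −log10 p was 80.2 in NUP98-HOXD13/Flt3-ITD, 53.5 in NUP98-HOXD13, 18.8 in set-2 Flt3-ITD and 62.4 in set-2 wildtype. It was 43.8 in Flt3-ITD/Runx1-het, 85.3 in set-1 Flt3-ITD, 71.5 in Runx1-het and 68.5 in set-1 wildtype. The Lin28b promoter was thus open in every genotype.

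Just upstream of that promoter, still inside the gene span, lay 2 regions present in the NUP98-HOXD13 lists and no other. The first (45470823 to 45471255, 838 bp upstream of the start and 208 bp from the promoter region) had a −log10 p of 22.9 in NUP98-HOXD13/Flt3-ITD and 11.5 in NUP98-HOXD13, and the authors' fold enrichment was 4.02 in NUP98-HOXD13/Flt3-ITD and 3.06 in NUP98-HOXD13. The second (45473175 to 45473552, 3162 bp upstream) had 24.8 in NUP98-HOXD13/Flt3-ITD and 21.1 in NUP98-HOXD13, and the fold enrichment was 4.23 in NUP98-HOXD13/Flt3-ITD and 4.16 in NUP98-HOXD13. All 4 values lay below the median of their list, at percentiles of 27.7 to 49.5, where a percentile gives the place of a peak by −log10 p among all peaks of its own list and strong peaks have high values. With equal numbers of peaks, the second region was still gained and the first was not, since the NUP98-HOXD13 peak fell out. NUP98-HOXD13/Flt3-ITD alone held a further 3 weak regions, at 45362625 (in the neighbouring gene Bves), 45455924 and 45479387, with −log10 p of 11.5, 13.1 and 6.15.

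On the minus strand the high end of the Lin28b span (45486314) is the upstream end of the gene, beyond the start used here. A region open in all 8 lists covered that end (45485591 to 45487130), centred 16159 bp upstream of the start. Its percentile was 87.1 in NUP98-HOXD13/Flt3-ITD, 92.2 in NUP98-HOXD13, 51.6 in set-2 Flt3-ITD and 69.6 in set-2 wildtype. It was 59.4 in Flt3-ITD/Runx1-het, 62.3 in set-1 Flt3-ITD, 67.1 in Runx1-het and 71.0 in set-1 wildtype. The NUP98-HOXD13 lists had the highest values, with −log10 p of 122 and 184, and the remaining 6 lists had 16.7 to 81.2. In these 2 lists it was the strongest Lin28b region, whereas in the other 6 the strongest lay between genes, 96.8 kb downstream of the start (45372969 to 45373789), with −log10 p of 26.7 to 163 there and 63.5 in NUP98-HOXD13/Flt3-ITD and 54.0 in NUP98-HOXD13. Percentiles in lists of different lengths are given side by side and show no change. A region far downstream in the span (45381936 to 45382558) followed Flt3-ITD in set 2, absent with it and present in NUP98-HOXD13 at 30.5 and set-2 wildtype at 22.4, while all 4 set-1 lists held it.

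Hmga2 (chromosome 10, 120361268 to 120476469, minus strand), the DNA-bending let-7 target, held 27 regions, 20 inside the span and none in another gene. NUP98-HOXD13/Flt3-ITD held 12, NUP98-HOXD13 18, set-2 Flt3-ITD 9 and set-2 wildtype 18. Flt3-ITD/Runx1-het held 15, set-1 Flt3-ITD 15, Runx1-het 19 and set-1 wildtype 12. The promoter region (120475570 to 120477834), 2265 bp wide, was open in all 8 lists. Its percentile was 77.2 in NUP98-HOXD13/Flt3-ITD, 77.5 in NUP98-HOXD13, 47.0 in set-2 Flt3-ITD and 75.5 in set-2 wildtype, and 82.4 in Flt3-ITD/Runx1-het, 77.4 in set-1 Flt3-ITD, 77.9 in Runx1-het and 75.2 in set-1 wildtype. Outside the shortest list the values thus spanned 75.2 to 82.4.

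A region of the gene body, 65.5 kb downstream of the start (120410707 to 120411283), differed with 2 mutations in opposite directions. It had a −log10 p of 31.7 in NUP98-HOXD13/Flt3-ITD and 18.4 in NUP98-HOXD13, and was missing from set-2 Flt3-ITD and set-2 wildtype. In set 1 it was missing from Flt3-ITD/Runx1-het and Flt3-ITD, and had 32.7 in Runx1-het and 30.1 in wildtype. The 2 wildtype lists therefore differed at this region. It was no longer gained with NUP98-HOXD13 when a list had to cover at least 50% of a region. A second gain with NUP98-HOXD13, 27.6 kb upstream of the start (120503857 to 120504332), had 11.5 in NUP98-HOXD13/Flt3-ITD, 14.2 in NUP98-HOXD13 and 18.8 in Runx1-het. It no longer counted as gained under equal numbers of peaks or under the 50% rule.

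In set 2, 3 regions of the Hmga2 body were absent with Flt3-ITD, starting at 120384612, 120391983 and 120398809. In NUP98-HOXD13 their −log10 p was 14.0, 12.2 and 6.41, and in set-2 wildtype 24.1, 26.9 and 19.8. These were weak peaks, at percentiles of 14.8 to 39.6. In set 1 the first was present in all 3 mutants at 18.8 to 26.8 and missing from wildtype, so that its absence did not go with Flt3-ITD there. Of the set-1 lists, only Runx1-het held the second, at 14.2, and only Flt3-ITD/Runx1-het the third, at 7.95. The Hmga2 region gained with Flt3-ITD in set 1 (120428389 to 120429181) had 7.46 in Flt3-ITD/Runx1-het and 14.6 in Flt3-ITD and was found in no other list. The strongest region by mean percentile, 98.9 kb downstream of the start (120377124 to 120378110), was open in all 8 lists at percentiles of 67.1 to 83.3.

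**Figure D3:**
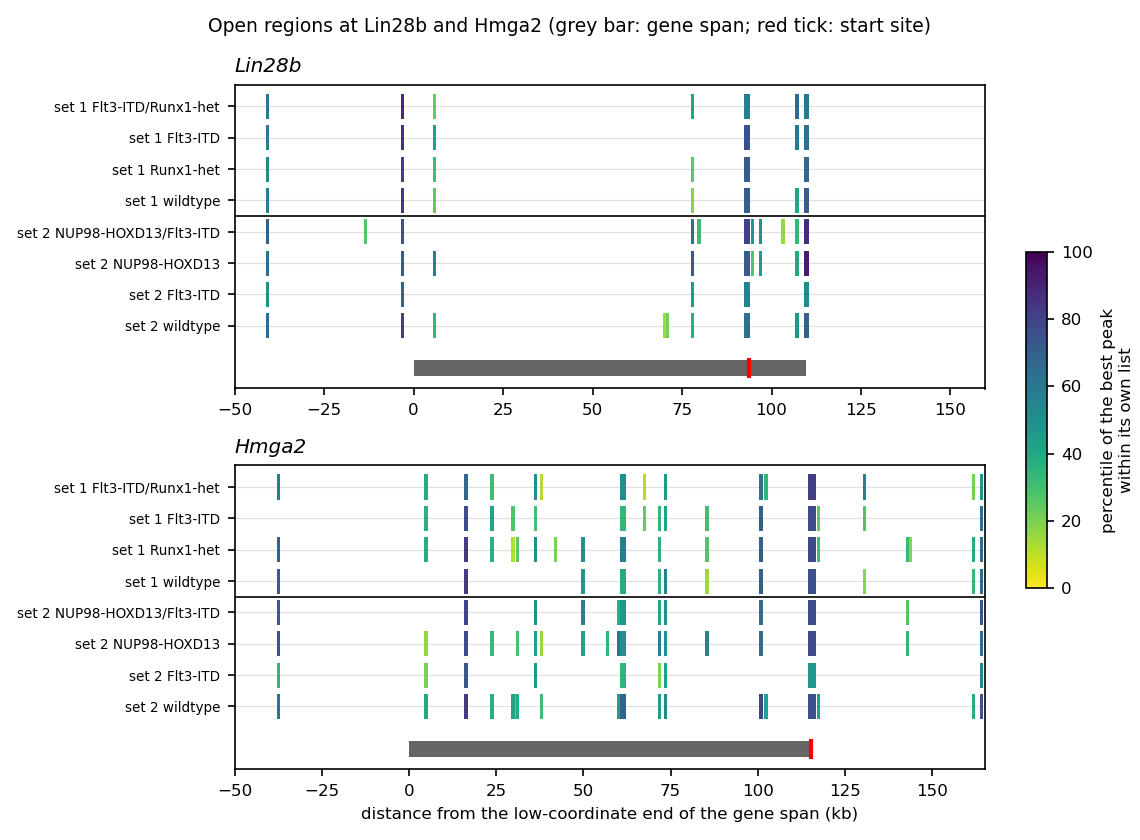
Open regions at Lin28b and Hmga2 in the 8 lists (rows), by distance in kb from the low-coordinate end of the gene span, with narrow regions widened to be visible; color is the percentile of the region's best peak in its own list and the bar marks the gene span. Right of the Lin28b promoter, 2 regions appear in both NUP98-HOXD13 rows and in no other row.

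Igf2bp3 (chromosome 6, 49085218 to 49215469, minus strand, start at 49214954), a family member expressed in fetal tissue and in cancers, held 24 regions. NUP98-HOXD13/Flt3-ITD held 19, NUP98-HOXD13 14, set-2 Flt3-ITD 9 and set-2 wildtype 15. Flt3-ITD/Runx1-het held 14, set-1 Flt3-ITD 15, Runx1-het 17 and set-1 wildtype 14. Of the 24, 10 lay inside the span, and 8 lay in the neighbours Gpnmb, Malsu1 and Tra2a alone. NUP98-HOXD13/Flt3-ITD gained 7 of 22 regions here (31.8%), against 10.1% of all regions. This was the highest count of any locus, but the share was higher at Igf2bp1 (66.7%) and Lin28b (35.7%). Of the 7, 4 were found in no other list, as were 26.0% of all regions gained in NUP98-HOXD13/Flt3-ITD.

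The region at the Igf2bp3 start (49214634 to 49215045) was present in NUP98-HOXD13/Flt3-ITD and absent from the other 7 lists. It overlapped 141 of the 300 bases shown above and had a −log10 p of 31.6, a fold enrichment of 3.40 and a percentile of 56.8. Only 260 bp further upstream, a region (49215306 to 49215858) was open in all 8 lists. There the −log10 p was 94.3 in NUP98-HOXD13/Flt3-ITD, 122 in NUP98-HOXD13, 9.21 in set-2 Flt3-ITD and 52.7 in set-2 wildtype. In set 1 it was 42.8 in Flt3-ITD/Runx1-het, 26.7 in Flt3-ITD, 53.6 in Runx1-het and 44.7 in wildtype. The 2 NUP98-HOXD13 lists again had the highest values of the 8. The high end of the gene span (49215469), its upstream end on the minus strand, lay inside the region open in all 8 lists. The start used here (49214954) thus lay beside chromatin open in every genotype, and in NUP98-HOXD13/Flt3-ITD a separate peak covered that start.

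A region 3013 bp upstream of the start (49217565 to 49218369), between genes, was among the strongest of the locus. Its percentile was 97.3 in NUP98-HOXD13/Flt3-ITD, 96.1 in NUP98-HOXD13, 67.1 in set-2 Flt3-ITD and 93.6 in set-2 wildtype, and 87.2 to 92.8 in the 4 set-1 lists. The highest mean percentile over the 8 lists belonged to a region in Tra2a, a splicing factor gene, 48.7 kb upstream (49263065 to 49264323, percentiles 78.1 to 94.9). Inside the gene, 45.4 kb from the start, the region at 49169288 to 49169730 was present in exactly the NUP98-HOXD13 lists, with −log10 p of 20.0 in NUP98-HOXD13/Flt3-ITD and 26.6 in NUP98-HOXD13. It was gained under equal numbers of peaks and under the 50% rule as well. The other gain with NUP98-HOXD13 (49039581 to 49039928, −log10 p 15.6 and 26.5) lay in Gpnmb, 175 kb from the start, and was held by all 3 set-1 mutants too.

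With Flt3-ITD, 1 Igf2bp3 region was lost in both sets. It lay 18.7 kb upstream of the start (49233409 to 49233823) and was absent from all 4 Flt3-ITD lists. Its −log10 p was 27.6 in NUP98-HOXD13, 17.1 in Runx1-het, 12.7 in set-2 wildtype and 15.0 in set-1 wildtype. A second loss, in set 1 alone (49134686 to 49135514), had 12.0 in Runx1-het and 18.8 in wildtype, and 16.5 in set-2 wildtype. Where present, these peaks lay at percentiles of 20.5 to 53.4.

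Igf2bp1 (chromosome 11, 95957163 to 96005944) held the fewest regions, 7, none of them present in all 8 lists. NUP98-HOXD13/Flt3-ITD held 6, NUP98-HOXD13 2, set-2 Flt3-ITD 1 and set-2 wildtype 2. Flt3-ITD/Runx1-het, set-1 Flt3-ITD and Runx1-het held 4 each and set-1 wildtype 3. Inside the span there were 3 regions, and set-1 Flt3-ITD, set-2 Flt3-ITD and set-2 wildtype held none of them. The gene was therefore the least open of the 7, with a median percentile of its best own peak of 41.8 over the 5 lists that had one.

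The strongest of these (95981082 to 95981453) showed the same opposite pattern as the Hmga2 body region. Its −log10 p was 33.7 in NUP98-HOXD13/Flt3-ITD and 22.8 in NUP98-HOXD13, and it was missing from set-2 Flt3-ITD and set-2 wildtype. In set 1 it was missing from Flt3-ITD/Runx1-het and Flt3-ITD, and had 14.5 in Runx1-het and 25.8 in wildtype. Its gain with NUP98-HOXD13 held under equal numbers of peaks and the 50% rule. A region at 95998871 to 95999373 was held by NUP98-HOXD13/Flt3-ITD (17.9) and Flt3-ITD/Runx1-het (9.54) alone. The region nearest a gene end (96005474 to 96006005) was present in Runx1-het alone, at 8.95. In B4galnt2, a glycosyltransferase gene of the window, a region (95907495 to 95908408) was gained with Flt3-ITD in set 2, with 29.8 in NUP98-HOXD13/Flt3-ITD and 20.0 in Flt3-ITD, but set-1 wildtype held it too, at 24.8. The highest mean percentile belonged to a region in Snf8 (96034564 to 96035621), missing from set-2 Flt3-ITD alone and at percentiles of 47.7 to 75.0 elsewhere.

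Igf2bp2 (chromosome 16, 22059009 to 22163299, minus strand), the family member that is widely expressed after birth, held 15 regions, 13 inside the span. NUP98-HOXD13/Flt3-ITD held 8, NUP98-HOXD13 7, set-2 Flt3-ITD 7 and set-2 wildtype 10. Flt3-ITD/Runx1-het held 8, set-1 Flt3-ITD 8, Runx1-het 12 and set-1 wildtype 9. The promoter region (22162394 to 22163957) was open in all 8 lists at percentiles of 36.5 to 61.0, and 5 further regions were constant. The locus' strongest region (22009070 to 22010069, percentiles 96.1 to 98.8) lay in the neighbour Senp2, a protease gene of the SUMO pathway. NUP98-HOXD13/Flt3-ITD gained 1 of 11 regions here (9.09%), against 10.1% of all regions.

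Inside Igf2bp2, a region 47.1 kb from the start (22115913 to 22116518) was open in all 8 lists and uneven in strength. Its percentile was 88.5 in NUP98-HOXD13/Flt3-ITD, 84.2 in NUP98-HOXD13, 55.3 in set-2 Flt3-ITD and 79.6 in set-2 wildtype. In set 1 it was 49.4 in Flt3-ITD/Runx1-het, 59.5 in Flt3-ITD, 71.8 in Runx1-het and 59.8 in wildtype. The region lost with NUP98-HOXD13 (22095516 to 22096126) was also lost with Runx1-het. It had −log10 p of 10.9 in set-2 Flt3-ITD and 32.2 in set-2 wildtype, and 11.6 in set-1 Flt3-ITD and 8.33 in set-1 wildtype. The region lost with Flt3-ITD in set 2 (22097325 to 22098231) had 124 in set-2 wildtype but 22.8 in NUP98-HOXD13, and all 4 set-1 lists held it at 24.8 to 35.7. The region lost with Flt3-ITD in set 1 (22151756 to 22152199) had 12.8 in Runx1-het, 6.85 in set-1 wildtype and 21.5 in set-2 wildtype. It was weak in these lists, at percentiles of 11.7 to 33.2.

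**Figure D4:**
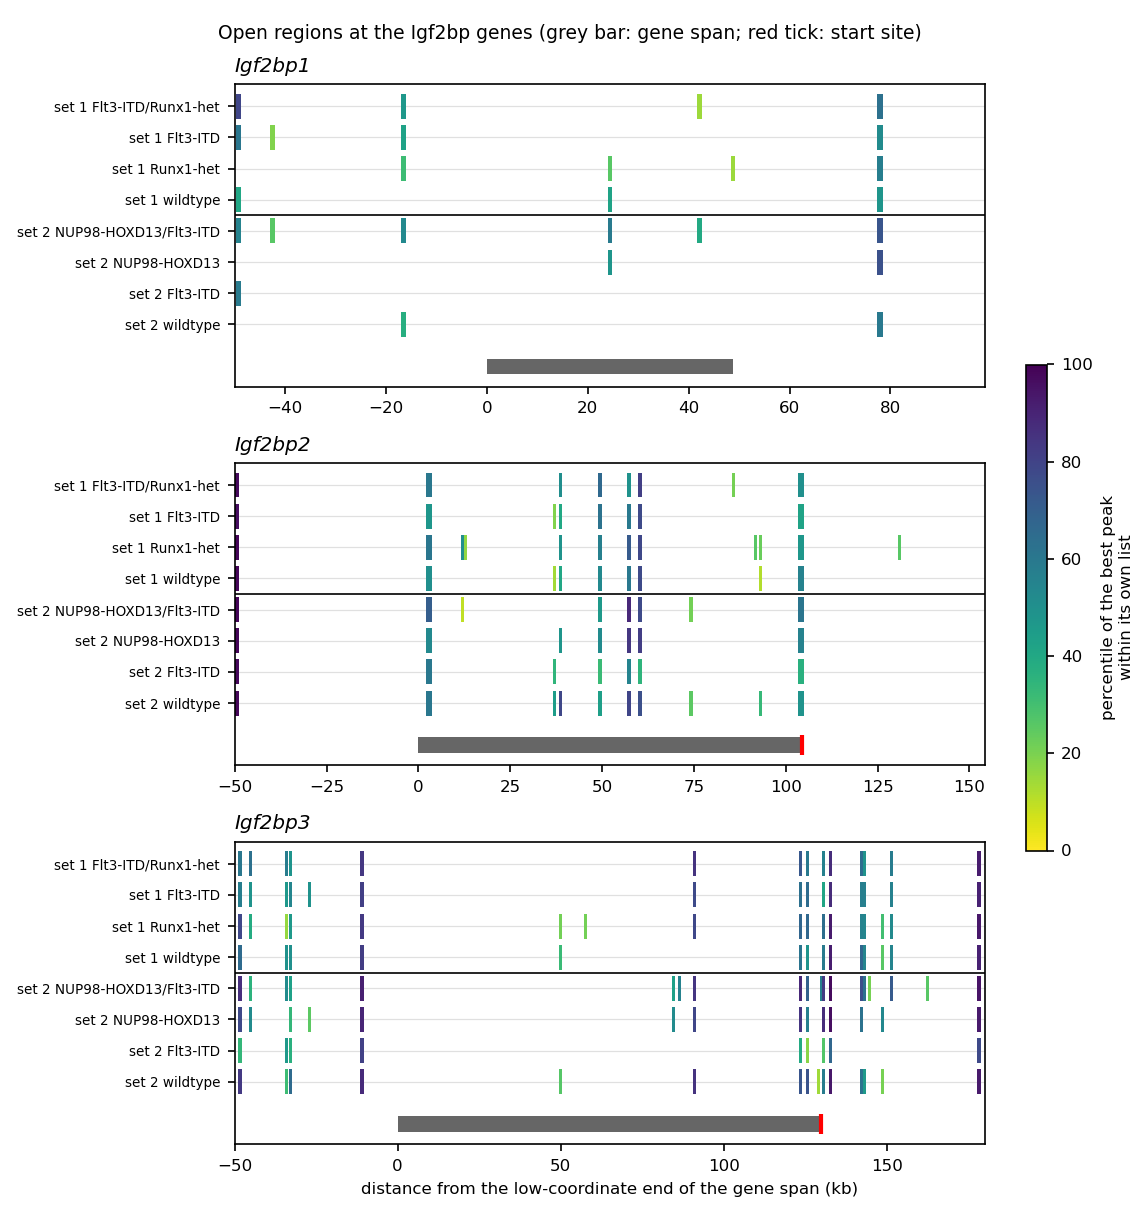
Open regions at Igf2bp1, Igf2bp2 and Igf2bp3 in the 8 lists (rows), by distance in kb from the low-coordinate end of each gene span, with narrow regions widened to be visible; color is the percentile of the region's best peak in its own list. Igf2bp2 and Igf2bp3 have columns filled in all 8 rows, and Igf2bp1 has none.

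Arid3a (chromosome 10, 79927043 to 79955018) lay in the densest window, with 34 regions at 26.6 per 100 kb. NUP98-HOXD13/Flt3-ITD held 23, NUP98-HOXD13 24, set-2 Flt3-ITD 18 and set-2 wildtype 26. Flt3-ITD/Runx1-het held 25, set-1 Flt3-ITD 23, Runx1-het 29 and set-1 wildtype 24. Most of them could belong to neighbours, since 7 lay inside the span and 16 in the spans of other genes. The window holds 11 other genes, among them the neutrophil protease genes Elane and Prtn3 and the complement gene Cfd. Of the 34, 13 were open in all 8 lists, including 4 of the 7 inside Arid3a.

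The region over the low end of Arid3a (79926272 to 79927921), the nearest to a gene end, had percentiles of 85.9 in NUP98-HOXD13/Flt3-ITD, 80.4 in NUP98-HOXD13, 35.2 in set-2 Flt3-ITD and 63.9 in set-2 wildtype. In set 1 it had 73.2 in Flt3-ITD/Runx1-het, 54.6 in Flt3-ITD, 63.1 in Runx1-het and 56.3 in wildtype. The strongest region inside the gene by mean percentile (79940619 to 79941186) ranged over the 8 lists between 77.9 and 90.8. The strongest of the window (79908201 to 79909028) lay in Med16, a Mediator subunit gene, at 88.8 to 96.7. Both regions gained with Runx1-het lay outside Arid3a. The first (79883717 to 79884140) had −log10 p of 17.6 in Flt3-ITD/Runx1-het and 20.6 in Runx1-het, and the second, in Kiss1r (79923683 to 79923929), had 16.5 in Flt3-ITD/Runx1-het and 21.7 in Runx1-het. Neither was confined to these lists, since NUP98-HOXD13 held the first at 13.0 and set-2 wildtype the second at 22.3. A region in Grin3b (79974561 to 79975048) was lost with Flt3-ITD in set 1, with 24.8 in Runx1-het and 18.3 in wildtype. In set 2, NUP98-HOXD13/Flt3-ITD held it at 22.7 and Flt3-ITD lacked it. A region in Med16 (79900846 to 79901451) was lost with Flt3-ITD in set 2, with 24.7 in NUP98-HOXD13 and 63.6 in wildtype. Every set-1 list held that Med16 region, at 23.6 to 54.1, so its absence did not go with Flt3-ITD there. None of the regions that followed a mutation lay inside Arid3a.

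Plagl1 (chromosome 10, 13090832 to 13131694, plus strand) held 9 regions and varied the least in number, with 6 in NUP98-HOXD13/Flt3-ITD, 7 in set-2 Flt3-ITD and in both wildtype lists, and 5 in the other 4. It was the only locus at which set-2 Flt3-ITD, the shortest list, held as many regions as its wildtype. The promoter region (13090345 to 13091335) was open in all 8 lists. Its −log10 p was 37.9 in NUP98-HOXD13/Flt3-ITD, 26.5 in NUP98-HOXD13, 14.7 in set-2 Flt3-ITD and 46.1 in set-2 wildtype. In set 1 it was 31.5 in Flt3-ITD/Runx1-het, 40.5 in Flt3-ITD, 46.2 in Runx1-het and 68.5 in wildtype. In both sets the wildtype list had the highest −log10 p, but NUP98-HOXD13/Flt3-ITD had the higher percentile in set 2, at 62.3 against 54.9 in wildtype.

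Of the 7 Plagl1 regions of set-1 wildtype, Flt3-ITD/Runx1-het lost 3, Flt3-ITD 2 and Runx1-het 2. Of all 72122 regions of set-1 wildtype, the same lists lost 9683, 8974 and 7698. The lost shares given above, 10.6%, 10.1% and 8.51%, have a wider base, the regions held by either list. With Runx1-het a region inside the gene (13117126 to 13117592) was absent, and it had 25.6 in set-1 Flt3-ITD and 14.1 in set-1 wildtype. With Flt3-ITD in set 1 a region in Zc2hc1b (13171067 to 13171571) was absent, and it had 36.0 in Runx1-het and 37.1 in wildtype. Every set-2 list held it, with 9.11 in NUP98-HOXD13/Flt3-ITD and 11.9 in Flt3-ITD, so its absence did not go with Flt3-ITD there. With Flt3-ITD in set 2 a region between genes (13060781 to 13061422) was absent, and it had only 4.66 in NUP98-HOXD13 and 7.86 in wildtype. The strongest region of the window (13172589 to 13173495) lay in Zc2hc1b, with percentiles of 78.9 to 87.4. NUP98-HOXD13/Flt3-ITD gained no Plagl1 region (0 of 7), where 10.1% of all regions were gained.

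**Figure D5:**
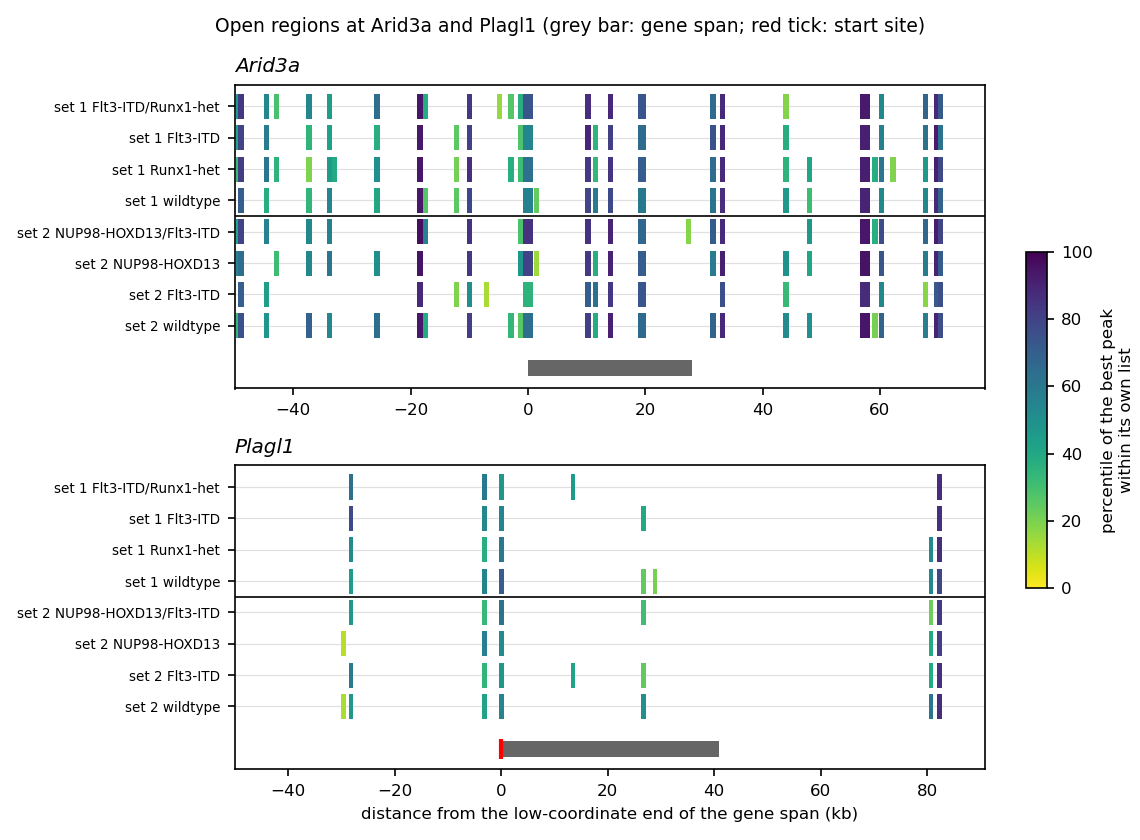
Open regions at Arid3a and Plagl1 in the 8 lists (rows), by distance in kb from the low-coordinate end of each gene span, with narrow regions widened to be visible; color is the percentile of the region's best peak in its own list. Columns filled in all 8 rows number 13 at Arid3a, 4 of them inside the gene, and 3 at Plagl1.

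The 21 regions gained in NUP98-HOXD13/Flt3-ITD were unevenly spread. Lin28b had 5 of 14 regions, Igf2bp1 4 of 6 and Igf2bp3 7 of 22, which made 16 of 42 (38.1%), against 10.1% of all regions. Igf2bp2, Hmga2, Arid3a and Plagl1 together had 5 of 66 (7.58%), nearer to that share of all regions. This grouping was chosen after the values were seen. Of the 21, 13 lay inside the span of their own gene, 8 were also present in NUP98-HOXD13 and 8 in no other list. Of all regions gained in that list, 42.5% were also in NUP98-HOXD13 and 26.0% in no other list. Set-1 wildtype held 4 of them. They were of modest strength, with percentiles of 9.72 to 71.6 and a median of 39.6, against a median of 33.8 over all 9873 regions gained in that list. Of the 18 gained with equal numbers of peaks, 12 were among the 21.

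Strength within a list ordered the loci differently from the number of regions. By the mean over the 8 lists of the percentile of the strongest peak inside the window, the order was Igf2bp2 (98.0), Arid3a (93.9), Igf2bp3 (92.0), Plagl1 (84.6), Lin28b (83.7), Hmga2 (79.8) and Igf2bp1 (64.0). The ranges of neighbours in this order overlapped over the lists, except that Igf2bp2 (96.1 to 98.8) and Arid3a (88.8 to 96.7) met only at their ends. When only peaks inside the gene's own span counted, the order by median was Arid3a (88.9), Igf2bp3 (81.8), Hmga2 (80.9), Igf2bp2 (79.0), Lin28b (71.3), Plagl1 (54.7) and Igf2bp1 (41.8). The top peak of the window lay in a neighbouring gene in all 8 lists at Igf2bp1, Igf2bp2, Arid3a and Plagl1, so these window values do not describe the genes themselves. By number, the windows of Arid3a, Hmga2 and Igf2bp3 held more regions than 98.4%, 95.7% and 93.3% of 19676 protein-coding genes, whose median was 11. Igf2bp2 and Lin28b held more than 68.4% and 63.2% of those genes, and Plagl1 and Igf2bp1 more than only 33.6% and 22.3%.

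For Lin28b the best own peak had percentiles of 87.1 in NUP98-HOXD13/Flt3-ITD, 92.2 in NUP98-HOXD13, 56.4 in set-2 Flt3-ITD and 69.6 in set-2 wildtype. In set 1 they were 65.8 in Flt3-ITD/Runx1-het, 75.5 in Flt3-ITD, 71.6 in Runx1-het and 71.0 in wildtype. Over the 8 lists, the genes whose number of regions per 10000 regions of the list varied most like that of Lin28b, among 14264 genes with windows apart from its own, were Acta2 (Pearson r 0.973), Med18 (0.963) and Fbxl6 (0.954). Among the other members the values were 0.596 for Igf2bp3, 0.380 for Igf2bp1, 0.0965 for Plagl1, −0.249 for Hmga2, −0.255 for Arid3a and −0.394 for Igf2bp2. These correlations rest on 8 points of small counts and are given as a description only.

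The wider let-7 axis was read from 30 further genes, of which 29 had regions and Dlk1 had none (0). In gene counts, each window was asked for at least 1 region that followed a mutation. With NUP98-HOXD13, 10 of 29 genes had a gained region (34.5%), against 25.0% of all protein-coding genes, and 4 of the 7 members did. A lost region was found at 4 of 29 (13.8%), against 14.9%, and at 1 member. The strongest gain lay in the window of H19, an imprinted growth-restraining RNA gene (chromosome 7, 142534384 to 142535202), with −log10 p of 66.0 in NUP98-HOXD13/Flt3-ITD and 90.9 in NUP98-HOXD13. This same region was lost with Flt3-ITD in set 1. The next were at Mirlet7i (32.5 in its weaker list), Arid3b (20.1), a paralog of Arid3a, and Igf1r (19.8), the receptor for insulin-like growth factors. The losses were weaker, at Mirlet7a-2 (11.9), Mirlet7i (7.54), Trim71 (6.99) and Mirlet7e (5.79).

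In set 1, 9 of 29 genes had a region gained with Flt3-ITD (31.0%), against 24.0% of protein-coding genes, and 1 of the 7 members did. A lost region was found at 3 of 29 (10.3%), against 16.3%, while 6 of the 7 members had one. The gains were led by Hmga1 (32.7 in its weaker list), the paralog of Hmga2, Trim71 (24.6), a ubiquitin ligase gene that is itself a let-7 target, Lin28a (21.6), the paralog of Lin28b, and Tut7 (21.0), a uridylyl transferase acting on let-7 precursors. The losses lay at Igf1r (28.0), H19 (15.9) and Mirlet7i (13.9). Over all protein-coding genes, too, a gained region was more frequent than a lost one. Windows with many regions have more chances of holding one that follows a mutation, and the members' windows held 7 to 34.

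In set 2, 1 of 29 genes had a region gained with Flt3-ITD (3.45%, all genes 4.97%), Mirlet7i at 15.5, and 13 had a lost one (44.8%, all genes 35.4%). Of the members, 1 had a gained and 6 had a lost region. The losses were led by Plag1 (31.8), a paralog of Plagl1, Dis3l2 (28.7), the exonuclease that degrades let-7 precursors, Igf1r (27.5) and Arid3c (23.2). With Runx1-het, 10 of 29 had a gained region (34.5%, all genes 23.8%) and 3 a lost one (10.3%, all genes 11.2%), with 1 and 2 of the 7 members. The gains were led by Hmga1 (24.5), Tut7 (18.5), the region shared by Mirlet7b and Mirlet7c-2 (16.6) and Mirlet7i (16.6), and the losses lay at Tut7 (16.8), Mirlet7e (15.5) and Trim71 (15.1). Clustered let-7 genes share 1 window and so do not count independently.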

How the data were processed

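ATAC-seq of 16 samples gave 8 peak lists, 1 for each group of 2 samples, pooled per the labels. The submitters' processing notes name Bowtie2, MACS2 and the builds mm10 and GRCm38. Thresholds for peaks, read shifting and duplicate removal were not given in the sources used here. Each deposited peak carried the authors' fold enrichment (a ratio) and the −log10 of its p-value, printed here for the best peak of a region in a list. A deposited score of unstated meaning and a −log10 q-value were not used.

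Peaks overlapping by at least 1 bp were merged over the 8 lists. Gene spans and starts came from RefSeq GRCm38.p6, promoter windows and miRNAs likewise, and 5 of the 7 members had a promoter entry. Exons and introns were not known. Presence, gain and loss were counted, with the share over all regions as background, and no p-value was computed. The counting was tested on simulated lists. Regions were named by rule: the promoter region or the one nearest a gene end, the strongest by mean percentile, and those following a mutation; others were named after their values were seen. The members and gene lists were chosen with earlier results of these data known. Alternatives were equal numbers of peaks (84080 per list), a list having to cover 50% of a region, a window of 10 kb and, added after the data were seen, leaving out set-2 Flt3-ITD. Python 3.11.15 with numpy 2.4.6, pandas 2.3.3 and matplotlib 3.10.9 was used.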

Additional observations from a re-analysis of the deposited data

How the results depend on the processing

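Each count of gained or lost regions at the 7 loci was recomputed under the alternatives, and a count was called stable within 1.5 times its value. With equal numbers of peaks per list, 7 of 24 counts were stable and 17 moved. Fewer regions were then tested, and 19 of the 24 shares stayed on the same side of the share of all regions. NUP98-HOXD13/Flt3-ITD lost 13 regions, NUP98-HOXD13 lost 10, set-2 Flt3-ITD gained 8 and lost 17, Flt3-ITD/Runx1-het gained 11 and lost 9, set-1 Flt3-ITD lost 8, and Runx1-het gained 10. Set-2 wildtype gained 9 over set-1 wildtype, and set-2 Flt3-ITD gained 8 over set-1 Flt3-ITD. For the stricter pattern over 4 lists of a set, the counts were 3 lost with NUP98-HOXD13, 2 gained and 3 lost with Flt3-ITD in set 2, 2 gained and 4 lost with Flt3-ITD in set 1, and 1 gained and 1 lost with Runx1-het. When a list had to cover 50% of a region, 22 of 24 were stable, and 21 of 24 shares stayed on the same side. The other counts were 2 gained with Flt3-ITD in set 1 and 1 lost with Runx1-het.

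With a window of 10 kb, which holds 79 of the 130 regions, 14 of 24 counts moved and all were lower. No count could rise in this smaller window, so a lower count does not by itself show a changed result. Of the 24 shares, 18 stayed on the same side of the share of all regions. NUP98-HOXD13/Flt3-ITD gained 13, NUP98-HOXD13 lost 13, set-2 Flt3-ITD gained 3 and lost 22, set-1 Flt3-ITD gained 8 and lost 7, and Runx1-het gained 15. Set-2 wildtype lost 5 against set-1 wildtype, and set-2 Flt3-ITD gained 3 and lost 12 against set-1 Flt3-ITD. For the stricter pattern, 4 were lost with Flt3-ITD in set 1, 1 gained with Runx1-het, and 0 gained and 5 lost with Flt3-ITD in set 2. Leaving out set-2 Flt3-ITD gave 12 lost with NUP98-HOXD13 and 13 gained with Flt3-ITD in set 2. The gained share of NUP98-HOXD13/Flt3-ITD exceeded that of all regions with equal numbers, the 50% rule and the 10 kb window, at 21.7% against 11.8%, 22.4% against 12.6% and 20.0% against 10.1%. The lost share of the set-1 Flt3-ITD pattern did so as well, at 4.71% against 2.13%, 6.54% against 2.52% and 6.35% against 2.06%. No paired analysis was possible because the 2 samples of each group were pooled into 1 list. The lack of replicates, the unknown depth and the short set-2 Flt3-ITD list limit every count.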
